A study of Mus musculus with 15 samples.

Results

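The comparison set mouse E14 embryonic stem cells grown with PD032 as the only inhibitor against the same cells kept in 2iLif, over all genes. Its members were the 3 PD032 libraries and the 3 2iLif libraries, 6 of the 15 libraries of a poly(A) RNA sequencing series. E14 is a single wild-type line. Per the labels, all cells had been maintained with Lif at 4 ng/ml and the inhibitors CHIR99021 (at 3 µM) and PD0325901 (at 0.4 µM), and were then embedded at 2000 cells per µl in growth factor reduced Matrigel under N2B27 medium. That medium carried PD032 in the tested libraries, and 2iLif in the libraries they were set against. The labels do not spell out PD032 and give no dose or duration for the gel cultures, so whether both media held the same amount of one MEK inhibitor is not given in the sources used here. The remaining groups, PD032+ Aurka inh (called the combination here), Aurka inh and FGF2/Activin, shared the fit and serve as context. No group received N2B27 alone.

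PD0325901 blocks MEK, the kinase that activates ERK. CHIR99021 blocks GSK3, which stabilises β-catenin and lifts repression by the TCF factor Tcf7l1 from naive genes, and Lif acts through its receptor, gp130 and STAT3. In 2iLif these inputs hold mouse embryonic stem cells in the naive state of the preimplantation epiblast. On release, cells lose naive factors such as Klf4 and Tfcp2l1 and gain formative genes of the early postimplantation epiblast such as Otx2, Pou3f1 and Fgf5, a step for which ERK activity is known to be important.

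Total counts were 18421904 to 22683616 per library in PD032 and 15199507 to 15818758 in 2iLif. Levels below are CPM, counts scaled to TMM-adjusted library totals. Fold changes are log2, PD032 minus 2iLif. The standard error after ± is the absolute log2 fold change divided by the square root of the edgeR test's F statistic. Genes were called where p, adjusted by Benjamini-Hochberg across the 15223 genes tested, was under 0.05. The labels do not say that replicates came from separate cultures, so p-values measure a spread between libraries that may be technical. That spread was pooled over all 15 libraries, not taken from PD032 and 2iLif alone. The biological coefficient of variation was 9.32% in PD032 and 4.52% in 2iLif, and ran from 1.79% in FGF2/Activin to 11.1% in Aurka inh. PD032 replicate 2 stood somewhat apart: its counts differed from those of replicates 1 and 3 by a chi-squared per degree of freedom of 15.6 and 11.4, against 2.59 between replicates 1 and 3. In 2iLif, replicate 3 differed from replicates 1 and 2 by 6.95 and 6.14, against 1.34 between replicates 1 and 2. The embryonic stem cell markers Pou5f1, Sox2, Nanog, Zfp42 and Lin28a were present in all 6 libraries, with the lowest value 114 CPM, for Nanog in PD032 replicate 3.

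The files of the PD032, Aurka inh and combination libraries share a naming style, and those of 2iLif and FGF2/Activin share another. A batch, if the style marks any, and the medium therefore cannot be told apart in PD032 against 2iLif or against FGF2/Activin. On the second principal component of all 15 libraries (21.2% of the variance), the 9 inhibitor libraries lay at 20.7 or above. The other 6 lay at -43.8 or below. Total counts were 16010904 or more in each inhibitor library and 15818758 or less in each of the other 6. Of the 15223 genes, 1339 (8.8%) had all 9 inhibitor libraries above, or all below, the other 6. This count is strict and does not bound how many genes a batch would touch. Pseudogenes made up 12.3% of these 1339 genes and 4.97% of all genes tested. Among the genes that passed in PD032 against 2iLif, 1275 of 9590 (13.3%) separated the styles in this way. Their 3 PD032 libraries lay above or below all 12 others, the inhibitor groups of the same style included, at 1745 (18.2%), and 195 genes met both descriptions. Values of the other groups are therefore set beside those of PD032 and 2iLif where a gene turns on them.

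PD032 and 2iLif cells differed at most of the genes measured. In PD032, 4881 genes were higher, which is 32.1% of those tested, and 4709 were lower, or 30.9%. Together these were 63% of the genes tested, and each list count below is to be read beside these shares. At 2-fold or more the split was less even, with 2409 genes higher (15.8%) and 1195 lower (7.85%). The median log2 fold change over all genes tested was 0.01. The libraries of both groups did not overlap at 10344 genes, 67.9% of those tested, so a lack of overlap sets few genes apart here.

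**Figure D1:**
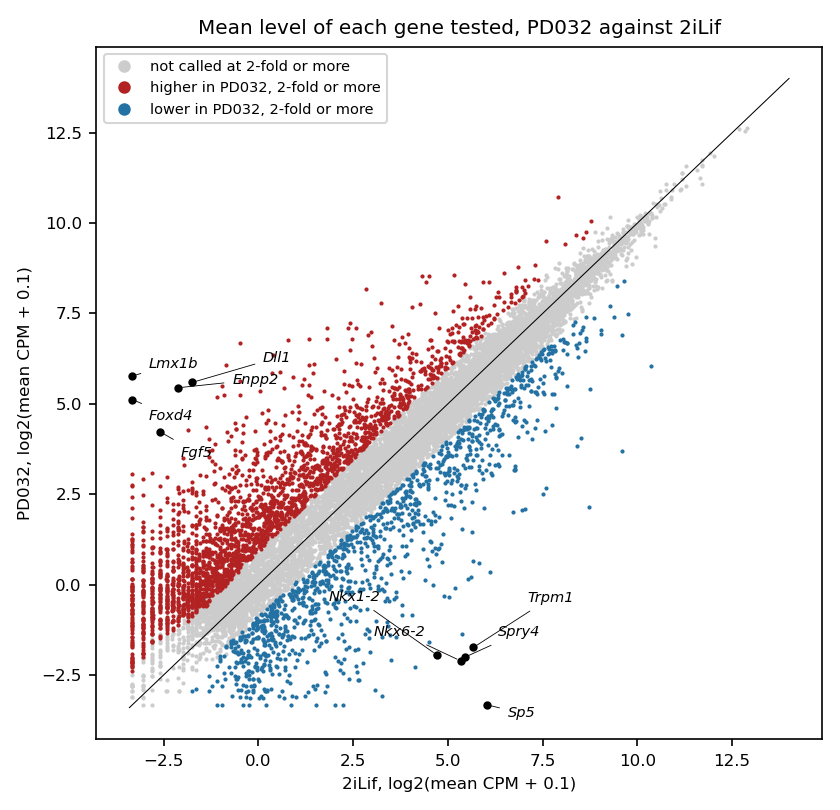
Mean level of the 15223 genes tested, in PD032 (vertical axis) and 2iLif (horizontal axis), both as log2(mean CPM + 0.1); the line marks equal levels. The 2409 genes called higher at 2-fold or more are red and the 1195 called lower are blue, and the 10 labelled genes are those with the largest fitted fold changes at 10 CPM or more in the higher group, with Lmx1b and Foxd4 at 0 CPM in 2iLif and Sp5 at 0 CPM in PD032.

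Among genes with at least 10 CPM in the higher group, the 5 with the largest rise were Lmx1b, Foxd4, Enpp2, Fgf5 and Dll1, and the 5 with the largest fall were Sp5, Spry4, Nkx6-2, Trpm1 and Nkx1-2. Lmx1b (ENSMUSG00000038765, chromosome 2, 33560965 to 33640511, mm10), a LIM homeobox factor of the developing midbrain and limb, had 57.9, 46.8 and 59 CPM in the PD032 libraries and 0 counts in all 2iLif libraries, at least 836-fold higher against a limit of 3 counts over the group. Foxd4 (ENSMUSG00000051490, chromosome 19, 24899236 to 24901197), a forkhead factor of the early neural ectoderm, had 34.7, 28.1 and 41.5 CPM in PD032 and again 0 counts in 2iLif, at least 535-fold higher. Both genes were near 0 in most of the other groups too, with Lmx1b at 3.3 CPM and Foxd4 at 0.192 CPM in the combination, and all 3 PD032 libraries lay above all 12 others. Lmx1b also separated the naming styles. Enpp2, which makes the lipid signal lysophosphatidic acid, had 48, 36.7 and 45.7 CPM in PD032 and 0.13, 0.0676 and 0.195 CPM in 2iLif (log2 fold change 8.30 ± 0.30, edgeR adjusted p = 1.5e-12). For Enpp2 the Aurka inh and FGF2/Activin means, 76.8 and 45.3 CPM, reached or passed the PD032 level.

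On the side of the falls, Nkx1-2, a homeobox gene of the caudal epiblast, had 0.137, 0.215 and 0.128 CPM in PD032 and 26.2, 24.9 and 27.1 CPM in 2iLif (log2 fold change -7.32 ± 0.23, edgeR adjusted p = 3e-13). It averaged 43.1 CPM in the combination and 36.7 CPM in Aurka inh, so its low level was not shared by the other inhibitor media. Nkx6-2, another homeobox gene, had 0.183, 0 and 0.214 CPM in PD032, against 40.6, 39.3 and 41.3 CPM in 2iLif. Trpm1, a cation channel known from melanocytes and retina, had 0.365, 0.107 and 0.128 CPM in PD032, against 51.4, 47.1 and 54.3 CPM in 2iLif. Both were at no more than 2.66 CPM on average in every group other than 2iLif, a different pattern from that of Nkx1-2. Nkx6-2 is also among the genes that separate the naming styles.

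Of 16 naive pluripotency genes, 14 fell and 1 rose in PD032, and the list's median log2 fold change was -1.83. Klf4, a Krüppel-like factor driven by STAT3, had 14.5, 12 and 16.3 CPM in PD032 and 336, 329 and 347 CPM in 2iLif (log2 fold change -4.56 ± 0.092, edgeR adjusted p = 2.7e-15). Tfcp2l1, a self-renewal factor shared by the Lif and GSK3 inhibitor inputs, had 72.2, 63.5 and 63 CPM in PD032, against 1317, 1343 and 1248 CPM in 2iLif. Tbx3 had 4.38, 7.94 and 4.58 CPM in PD032, against 189, 180.5 and 174 CPM in 2iLif, the largest fall of the list at -5.03 ± 0.25. Klf4, Tfcp2l1 and Tbx3 were named for large falls among members that passed. Falls far beyond the replicate spread were built into that choice. The groups did not overlap, as was the case at 67.9% of all genes tested. Esrrb, a nuclear receptor released by GSK3 inhibition, had 183, 187 and 162 CPM in PD032 and 837, 859.9 and 889 CPM in 2iLif, and Nanog 131, 119 and 114 CPM in PD032 and 517, 519 and 554 CPM in 2iLif (log2 fold changes -2.28 ± 0.11 and -2.13 ± 0.11). Both thus kept over 100 CPM in PD032.

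Klf4, Esrrb and Nanog kept levels in PD032 above those in FGF2/Activin. Klf4 averaged 3.79 CPM, Esrrb 30.2 CPM and Nanog 40.3 CPM in FGF2/Activin, each below the lowest PD032 library. Within the inhibitor libraries, the same genes averaged 48.3, 467 and 384 CPM in the combination and 15.7, 151 and 119 CPM in Aurka inh. Against Aurka inh, a comparison in which 45.5% of all genes passed, none of these 3 did (Klf4 -0.13 ± 0.096, Esrrb 0.24 ± 0.11 and Nanog 0.03 ± 0.10, edgeR adjusted p = 0.29, 0.091 and 0.84). Other naive genes did differ: of the 16, 5 were higher and 2 lower in PD032 than in Aurka inh. Against 2iLif, the rise in the list was Dppa3, a maternal and germline factor, with 8.86, 15 and 10.8 CPM in PD032 and 4.29, 3.58 and 4.16 CPM in 2iLif. Dppa3 and Fgf4 were the members that separated the naming styles. Fbxo15 did not pass (log2 fold change -0.06 ± 0.10, edgeR adjusted p = 0.63). Counts of Pou5f1, Nanog, Dppa5a and Dppa3 are uncertain because reads may be shared with their processed pseudogenes.

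Of the 12 core pluripotency genes, 7 were higher and 4 lower. Pou5f1, which encodes Oct4, had 406, 515 and 425 CPM in PD032 and 809.7, 819 and 857 CPM in 2iLif (log2 fold change -0.88 ± 0.088, edgeR adjusted p = 2.9e-07). Its 3 PD032 libraries lay below all 12 others. Sox2 had 287, 325 and 287 CPM in PD032, against 518, 495 and 494 CPM in 2iLif (-0.75 ± 0.11). Tdgf1 (ENSMUSG00000032494, chromosome 9, 110939603 to 110946158), which encodes the Nodal co-receptor Cripto, fell most, with 45.3, 41.2 and 41.8 CPM in PD032 and 419, 417 and 450.0 CPM in 2iLif (-3.32 ± 0.06, edgeR adjusted p = 6.7e-16). It stayed at 155 CPM or more on average in every other group, and it separated the naming styles as well. Utf1, a chromatin factor of pluripotent cells, rose by 1.18 ± 0.055, and Dppa4 by 0.98 ± 0.088.

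Formative and primed genes rose together: 15 of 16 were higher and 1 was lower, with a median log2 fold change of 3.25. Otx2, the homeobox factor that starts the formative programme, had 228, 223 and 216 CPM in PD032 and 9.22, 9.33 and 9.63 CPM in 2iLif (log2 fold change 4.56 ± 0.055, edgeR adjusted p = 4.4e-18). The PD032 level of Otx2 was above that of all 12 other libraries, FGF2/Activin at a mean of 169 CPM included. Pou3f1, which encodes Oct6, had 81.7, 77.6 and 86.8 CPM in PD032, against 1.56, 1.35 and 0.716 CPM in 2iLif (6.08 ± 0.21). Fgf5, the classic marker of the postimplantation epiblast, had 19, 16.5 and 20.6 CPM in PD032 and 3 counts in all 2iLif libraries together, a count ratio of 286 (95% interval 97.6 to 1389, counting error only). Sall2 (5.42 ± 0.19) and Sox3 (4.86 ± 0.21) also rose, the first to 58.5, 59.2 and 60.3 CPM in PD032, against 1.69, 1.62 and 0.846 CPM in 2iLif.

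The size of these rises differed between members when set beside FGF2/Activin. Pou3f1 averaged 360.1 CPM and Fgf5 82.5 CPM in FGF2/Activin, both well above PD032, while Sox3 averaged 46.5 CPM there, close to the 42.6 to 44.1 CPM of PD032. In the combination, Fgf5 averaged 0.288 CPM and Pou3f1 3.14 CPM, both near 2iLif. Foxd3 was the member that fell (-1.12 ± 0.18), and it separated the naming styles. Wnt8a passed at under 1 CPM in every PD032 library, with 38 counts in PD032 and 6 in 2iLif. In bulk RNA, fewer cells of a type and less RNA per cell cannot be told apart, here and in all results below.

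**Figure D2:**
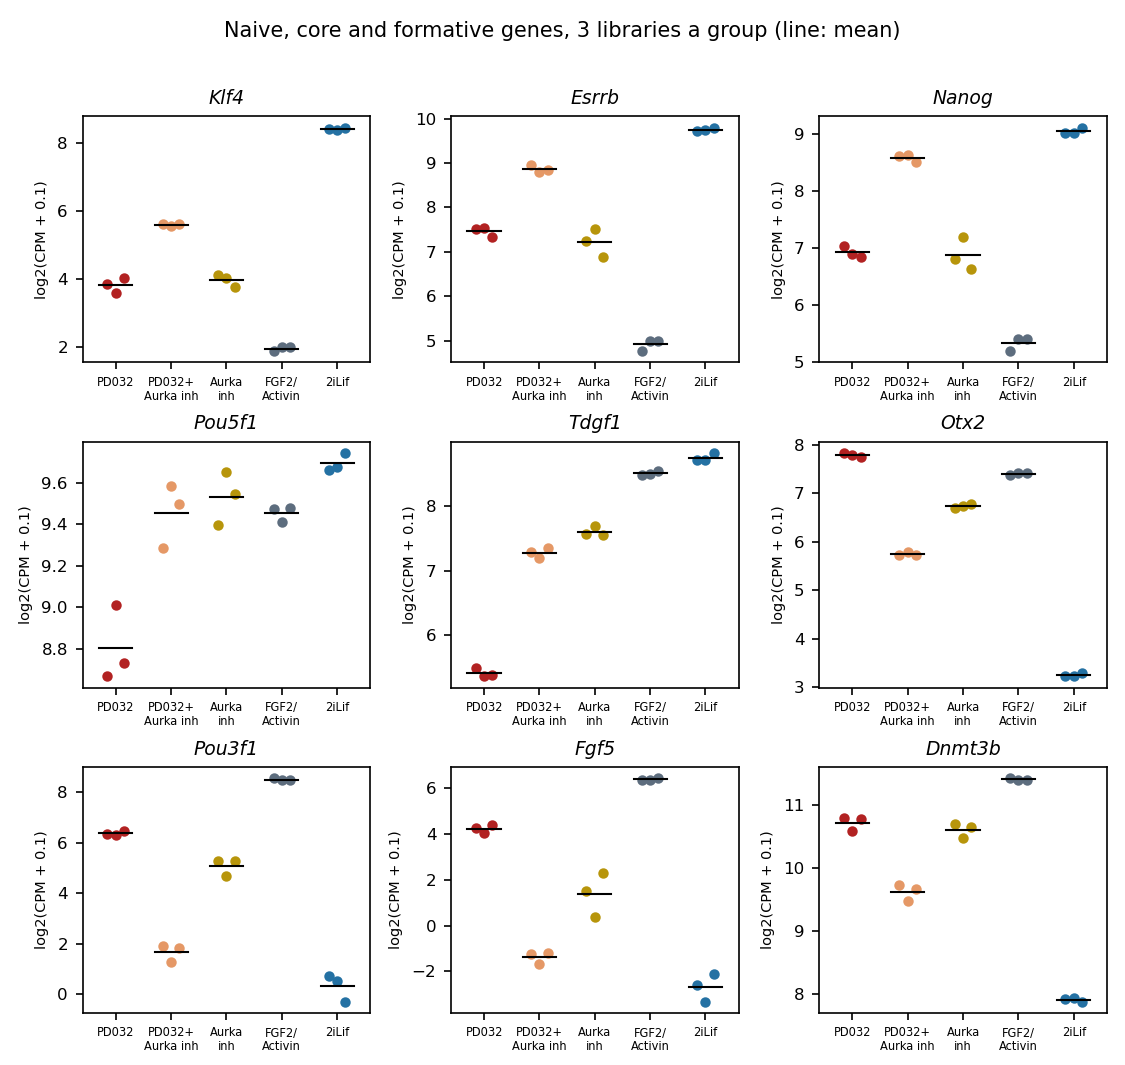
Levels of 9 pluripotency genes as log2(CPM + 0.1) in the 3 libraries of each group (points; the line is the mean on that scale), with PD032 at the left and 2iLif at the right of each panel. Klf4, Esrrb and Nanog lie lower and Otx2, Pou3f1, Fgf5 and Dnmt3b higher in PD032 than in 2iLif, and Tdgf1 is at 42.8 CPM on average in PD032, below every other group.

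DNA methylation genes changed beside the formative list. Dnmt3b, a de novo methyltransferase placed in the formative list, had 1781, 1542 and 1744 CPM in PD032 and 242, 246 and 236 CPM in 2iLif (log2 fold change 2.81 ± 0.075), and Dnmt3a rose by 3.39 ± 0.11. Of 9 further writers and erasers, 4 rose and 3 fell. Dnmt3l, the cofactor of both de novo enzymes, had 167, 235 and 168 CPM in PD032, against 34.7, 36.1 and 34.4 CPM in 2iLif (2.44 ± 0.16). The TET dioxygenases, which oxidise methylcytosine, went different ways: Tet3 rose by 3.07 ± 0.17 to 37.7, 30.3 and 39 CPM in PD032, against 4.94, 4.06 and 3.71 CPM in 2iLif, while Tet2 fell by 2.28 ± 0.13 on the log2 scale. Tet1 just missed the threshold (-0.30 ± 0.13, edgeR adjusted p = 0.051) and passed without PD032 replicate 1 (-0.39), without 2iLif replicate 3 (-0.42) and in 6 of the other alternatives. Uhrf1, which brings the maintenance methyltransferase to replicating DNA, fell by 0.56 ± 0.047. Germline genes, several of which are silenced by promoter methylation in somatic cells, were higher for 8 of 12 measured and lower for none, with a median of 1.56; without the filter on low counts 13 were higher. Among them were Hormad1 (2.50 ± 0.31), Mael (1.78 ± 0.15) and Sycp3 (1.68 ± 0.15). Hormad1 had 13.2, 23.5 and 15.5 CPM in PD032 and 3.38, 3.18 and 2.6 CPM in 2iLif. Asz1, Dpep3 and Tex101 were too low to test.

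ERK feedback inhibitors and ETS factors, the readouts of ERK activity in these cells, were lower in PD032 for 10 of 15 and higher for 3, with a median log2 fold change of -0.97. Spry4, a Sprouty feedback inhibitor, had 0.137, 0.268 and 0.0428 CPM in PD032 and 43.5, 44.2 and 43 CPM in 2iLif (log2 fold change -8.20 ± 0.19, edgeR adjusted p = 1.5e-14). It was also low in the combination, at 0.646 CPM, but not in Aurka inh at 17.1 CPM or FGF2/Activin at 56.7 CPM, and it separated the naming styles. Etv4, an ETS factor, had 1.37, 1.72 and 1.24 CPM in PD032, against 28.1, 31 and 26.7 CPM in 2iLif (-4.32 ± 0.11). Dusp6, a phosphatase that removes the activating marks of ERK, had 10.4, 13.9 and 11.6 CPM in PD032, against 32.3, 33.7 and 33 CPM in 2iLif (-1.47 ± 0.092). So 2iLif cells held more of the Spry4, Etv4 and Dusp6 transcripts than PD032 cells. Their libraries did not overlap, as was the case at 67.9% of all genes tested.

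Other members of the list fell by less or rose. Spry2 (-1.77 ± 0.075), Il17rd (-1.98 ± 0.094) and Epha2 (-1.38 ± 0.079) fell, each with its PD032 libraries below all 12 others. Etv5 lay at 287, 290.4 and 272 CPM in PD032 and 312, 319 and 316 CPM in 2iLif, a small fall (-0.16 ± 0.055, edgeR adjusted p = 0.022) that no longer passed with library sizes alone (-0.08), with the replicate block or without PD032 replicate 3 (-0.13 in both). The dual-specificity phosphatases Dusp4 and Dusp5 rose, by 1.67 ± 0.24 and 2.32 ± 0.20, and Spry1 by 0.43 ± 0.11. Dusp4 stayed low in PD032 all the same, at 6.53, 6.54 and 7.02 CPM, against 121 CPM on average in FGF2/Activin.

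The immediate early genes gave no common direction, with 5 of 10 measured higher and 1 lower. The 6 that passed are near the 63% of all genes tested. Egr1, an early ERK target, had 14.6, 0.644 and 26.1 CPM in PD032 and 16, 11.1 and 10.5 CPM in 2iLif, and did not pass (log2 fold change 0.17 ± 0.87, edgeR adjusted p = 0.88). PD032 replicate 2 was the low library for Egr1, as it was for Fos, with 9.91, 1.5 and 14.7 CPM in PD032 and 6.62, 5.81 and 3.97 CPM in 2iLif, and for Fosb. Without PD032 replicate 3 the estimate for Egr1 turned to -0.67, still short of the threshold. Fosb passed narrowly (2.06 ± 0.86, edgeR adjusted p = 0.046), and the call was lost on leaving out PD032 replicate 1 (1.98) or 3 (1.37) or any 2iLif library (1.98 to 2.17). Ier5 rose by 3.68 ± 0.15 with 11.1, 10.8 and 11.1 CPM in PD032, against 0.909, 0.743 and 0.911 CPM in 2iLif. Ier3 rose by 0.65 ± 0.18, and Ier2 fell by 0.70 ± 0.063. The 3 Ier genes showed no such spread between the PD032 libraries.

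Among 11 other FGF ligands and receptors, 7 were higher and 3 lower. Fgfr2, a receptor for FGF ligands, had 141, 122 and 145 CPM in PD032 and 3.25, 3.38 and 3.64 CPM in 2iLif (log2 fold change 5.31 ± 0.15, edgeR adjusted p = 7e-14). Its other group means ran from 14.3 CPM in FGF2/Activin to 36.8 CPM in the combination, so PD032 held the highest level of the series. It separated the naming styles too. Fgfr1, the main FGF receptor of the epiblast, rose by 0.99 ± 0.064 and was likewise above all 12 other libraries. The ligand Fgf10 had 4 counts in PD032 and 233 in 2iLif, and Fgf17 fell by 1.75 ± 0.20.

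Promoters of 3 genes that are standard readouts of the Wnt and Lif inputs are shown here because those inputs are what the PD032 medium lacks. Each window runs from 250 bases before to 50 bases after the annotated gene start, 5′ to 3′ on the gene's strand, from RefSeq on GRCm38.p6. Capitals mark CTTTGA on either strand, a core of the TCF motif, in Sp5 and Axin2, and TTCNNNGAA, the STAT motif, in Socs3. The Sp5 window is chr2:70474673-70474972 (plus strand), that of Axin2 chr11:108920099-108920398 (plus strand) and that of Socs3 chr11:117969317-117969616 (minus strand).
Sp5: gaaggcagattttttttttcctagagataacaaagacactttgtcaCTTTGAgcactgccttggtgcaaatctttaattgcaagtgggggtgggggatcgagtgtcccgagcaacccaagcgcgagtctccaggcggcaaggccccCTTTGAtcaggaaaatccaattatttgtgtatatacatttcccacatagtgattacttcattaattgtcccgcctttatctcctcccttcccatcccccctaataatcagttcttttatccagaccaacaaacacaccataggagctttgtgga
Axin2: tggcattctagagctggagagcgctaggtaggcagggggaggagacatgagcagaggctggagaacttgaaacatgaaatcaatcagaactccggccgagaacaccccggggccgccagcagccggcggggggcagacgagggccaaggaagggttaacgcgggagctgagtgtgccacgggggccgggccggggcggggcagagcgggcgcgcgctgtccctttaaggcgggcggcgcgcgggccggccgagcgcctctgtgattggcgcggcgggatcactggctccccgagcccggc
Socs3: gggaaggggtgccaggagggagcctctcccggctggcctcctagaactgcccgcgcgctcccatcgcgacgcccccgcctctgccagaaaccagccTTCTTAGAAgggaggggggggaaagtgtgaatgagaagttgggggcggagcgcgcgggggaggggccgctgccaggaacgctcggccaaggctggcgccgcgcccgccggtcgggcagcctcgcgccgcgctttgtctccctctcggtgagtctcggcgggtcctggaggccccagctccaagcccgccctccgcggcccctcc
The Sp5 window held 2 matches to CTTTGA, starting 204 and 104 bases before the gene start, and that of Axin2 none. Socs3 had 1 match to TTCNNNGAA, starting 154 bases before the gene start. A promoter was found for 10 of the 16 Wnt targets, and 3 of those 10 held CTTTGA, against 18.2% of all 27025 genes with a promoter. Of the 9 LIF and STAT3 targets with a promoter, 3 held TTCNNNGAA, against 9.55% of all genes. These are matches of letters, not binding sites.

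Wnt targets were lower for 10 of 15 measured and higher for 4, with a median log2 fold change of -0.99. Sp5, a transcription factor gene directly switched on by β-catenin, had 0 counts in all 3 PD032 libraries and 64.3, 68.9 and 62.8 CPM in 2iLif, at least 1390.2-fold lower. Axin2, the feedback inhibitor that marks canonical Wnt activity, had 4.66, 4.24 and 3.43 CPM in PD032 and 130.2, 123 and 118 CPM in 2iLif (log2 fold change -4.92 ± 0.095, edgeR adjusted p = 1.6e-15). Axin2 averaged 80 CPM in the combination and 97.1 CPM in Aurka inh, media that name no GSK3 inhibitor, and PD032 lay below all 12 other libraries. Trh, which encodes the precursor of thyrotropin-releasing hormone, had 13.8, 10.8 and 14.2 CPM in PD032, against 740.0, 782 and 791 CPM in 2iLif (-5.89 ± 0.10). Like Axin2, Trh was high in the combination at 468 CPM and in Aurka inh at 732 CPM. Cdx1, a caudal homeobox gene, had 1 count in PD032 and 434 in 2iLif, a 609-fold lower count ratio (95% interval 109 to 24094).

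Not all Wnt targets fell. Lef1, a TCF family factor, had 53.2, 51.9 and 55.4 CPM in PD032 and 1.95, 1.55 and 1.82 CPM in 2iLif (log2 fold change 4.91 ± 0.12). Its level in PD032 was close to the 54.7 CPM average of Aurka inh. Ascl2 (2.65 ± 0.23) and the feedback inhibitors Nkd1 (1.55 ± 0.33) and Nkd2 (2.32 ± 0.38) rose as well, while Bambi did not pass (0.11 ± 0.12, edgeR adjusted p = 0.41). T, or Brachyury, a streak gene that Wnt signalling activates, had 8 counts in PD032 and 203 in 2iLif.

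Among 16 Wnt signal transducers, 6 were higher and 5 lower. Tcf7l1, the TCF repressor of naive genes, had 197, 192 and 196 CPM in PD032 and 104, 109 and 104 CPM in 2iLif (log2 fold change 0.89 ± 0.046, edgeR adjusted p = 1.2e-10). It separated the naming styles, since the combination and Aurka inh averaged 207 and 149 CPM and FGF2/Activin 137 CPM. Of the Frizzled receptors, Fzd2 had 76, 58.9 and 75.1 CPM in PD032, against 5.78, 5.81 and 6.12 CPM in 2iLif (3.57 ± 0.11), while Fzd5 fell by 1.71 ± 0.084. Porcn, which makes Wnt ligands fit for secretion, fell to 1.55, 1.77 and 2.27 CPM in PD032, against 10.3, 10.8 and 11.3 CPM in 2iLif. Changes of β-catenin (Ctnnb1, 0.28 ± 0.05) and of Gsk3b (0.38 ± 0.096) were small.

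LIF and STAT3 targets fell for 9 of 10 and rose for none, with a median log2 fold change of -1.81. Socs3, the STAT3-induced feedback inhibitor of gp130, had 4.89, 1.5 and 6 CPM in PD032 and 131, 133 and 133 CPM in 2iLif (log2 fold change -4.96 ± 0.23, edgeR adjusted p = 2.3e-11). Bcl3, an IκB family coactivator, had 1.23, 1.61 and 1.41 CPM in PD032, against 54.6, 55.4 and 59.7 CPM in 2iLif (-5.32 ± 0.14). Gbx2, a homeobox gene that can sustain self-renewal without Lif when overexpressed, had 1.6, 2.09 and 2.01 CPM in PD032, against 28.1, 27.2 and 24.3 CPM in 2iLif (-3.80 ± 0.18). Unlike Axin2, Socs3 and Bcl3 were low in every medium other than 2iLif, with group means of at most 4.13 CPM. Pim1, Pim3 and Junb fell by 1.86 ± 0.098, 1.54 ± 0.066 and 2.42 ± 0.19, and Cish did not pass (-0.71 ± 0.32, edgeR adjusted p = 0.065), though it did without PD032 replicate 1 (-0.96). Gbx2, Pim3, Junb and Cish were the 4 members that separated the naming styles.

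Of the 6 measured components of the Lif receptor and STAT3 pathway itself, 4 fell and 1 rose. Stat3 had 41.1, 34.4 and 40.6 CPM in PD032 and 191, 185 and 184 CPM in 2iLif (log2 fold change -2.27 ± 0.084), a level shared by the combination, at 41 CPM, and FGF2/Activin, at 34.9 CPM. Il6st, which encodes gp130, fell by 1.39 ± 0.073, and Lifr, the Lif receptor, by 0.60 ± 0.091. Jak2 was the member that rose, by 0.25 ± 0.085 (edgeR adjusted p = 0.016), and it no longer passed under DESeq2, without the filter on low counts, or without 2iLif replicate 2 (0.23) or 3 (0.19).

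**Figure D3:**
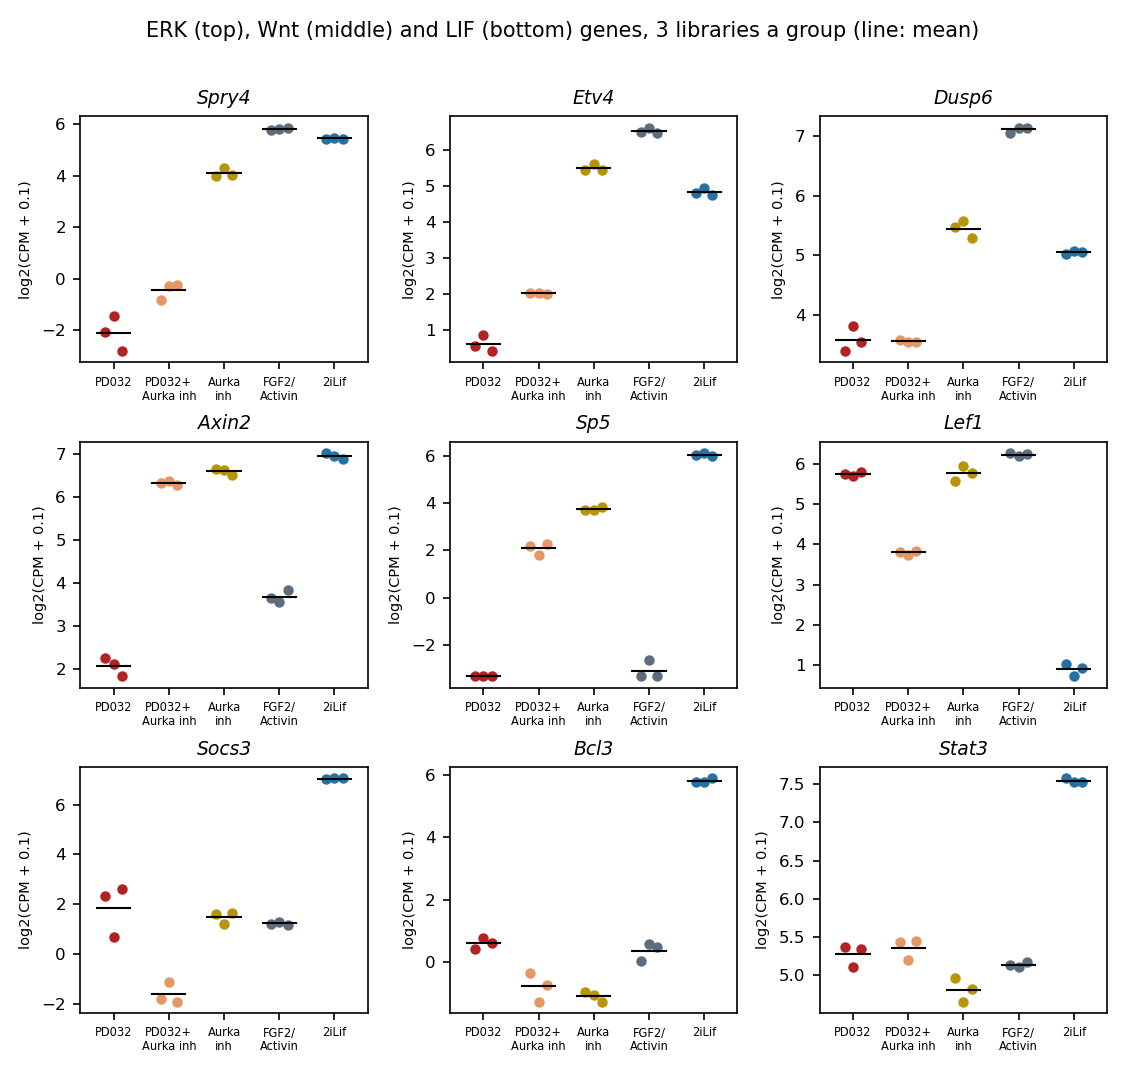
Levels of 3 ERK, 3 Wnt and 3 LIF genes as log2(CPM + 0.1) in the 3 libraries of each group (points; the line is the mean on that scale), with PD032 at the left and 2iLif at the right. Spry4, Etv4 and Dusp6 are low in both media with PD032, Axin2 at 4.11 CPM is low in PD032 but 80 CPM in the combination, and Socs3 and Bcl3 are high only in 2iLif among the 5 groups.

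Nodal and Activin genes were mixed, with 3 of 9 higher and 4 lower. Smad7, the inhibitory Smad, had 2.97, 2.41 and 3.08 CPM in PD032 and 42.5, 38.1 and 43.9 CPM in 2iLif (log2 fold change -3.86 ± 0.13), and it separated the naming styles. Nodal itself fell by 1.51 ± 0.10, with 22.6, 28.7 and 21.1 CPM in PD032, against 65.2, 68.2 and 71.8 CPM in 2iLif, and its inhibitor Lefty2 fell by 3.13 ± 0.31. For Nodal, Smad7, Lefty2 and the co-receptor gene Tdgf1 described above, PD032 lay below all 12 other libraries. Skil, which encodes the Smad corepressor SnoN, rose by 2.85 ± 0.14 to 198, 160.1 and 185 CPM, against 25.5, 25.8 and 24.2 CPM in 2iLif. Lefty1 rose at low counts (2.10 ± 0.72, edgeR adjusted p = 0.019), a call lost without PD032 replicate 1 (1.84), 2iLif replicate 1 (1.89) or 2iLif replicate 2 (1.84).

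In the BMP list, 4 of 9 rose and 4 fell. Bmp4 had 7.17, 4.51 and 6.6 CPM in PD032 and 54.9, 54.3 and 52.6 CPM in 2iLif (log2 fold change -3.13 ± 0.16). Smad9, a receptor-activated Smad of this pathway, had 8 counts in PD032 and 307 in 2iLif. The Id genes, targets of BMP signalling, split: Id1 and Id2 rose (0.49 ± 0.14 and 1.48 ± 0.18), and Id3 and Id4 fell (-0.98 ± 0.082 and -1.84 ± 0.20).

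Notch pathway genes rose for 7 of 12 measured and fell for 3. The ligand Dll1 had 44.7, 51.2 and 48.8 CPM in PD032 and 0.0649, 0.27 and 0.26 CPM in 2iLif (log2 fold change 7.88 ± 0.21, edgeR adjusted p = 4.9e-14), and the related Dll3 22.1, 17.7 and 23.4 CPM in PD032 and 0.649, 0.473 and 0.846 CPM in 2iLif (4.99 ± 0.30). Both were above all 12 other libraries, as were Notch1 (0.63 ± 0.17), Notch2 (1.76 ± 0.15) and the glycosyltransferase Lfng (1.99 ± 0.19). The effector Hes1 went the other way, with 6.39, 7.4 and 6.64 CPM in PD032, against 56.2, 47 and 55.1 CPM in 2iLif (-2.96 ± 0.14), and the ligand Jag1 fell by 2.19 ± 0.10, while the related ligand Jag2 rose by 0.98 ± 0.26. Notch4, a receptor outside the list and looked up after its value was seen, fell by 3.12 ± 0.22.

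Genes of retinoic acid handling rose for 5 of 9 measured and fell for 3, with a median of 1.34. Crabp2, which carries retinoic acid to its nuclear receptors, had 92.6, 113 and 99.4 CPM in PD032 and 0.585, 0.743 and 0.521 CPM in 2iLif (log2 fold change 7.36 ± 0.15, edgeR adjusted p = 4.3e-15). Cyp26a1, the enzyme that degrades retinoic acid, had 6.12, 3.65 and 5.91 CPM in PD032 and 0 counts in 2iLif, at least 80.8-fold higher. The retinol transporter Stra6 had 4.34, 2.2 and 3.94 CPM in PD032 and 0 counts in 2iLif, at least 54.2-fold higher. PD032 lay above all 12 other libraries for Crabp2 and Cyp26a1, and not for Stra6. Rarg, a retinoic acid receptor, rose by 1.34 ± 0.048. Rarb, Cyp26b1 and Hoxb1 were too low to test. Greb1l, a further gene that stood apart in PD032, had 83, 38.5 and 81.9 CPM there and 0.585, 0.203 and 0.586 CPM in 2iLif, with replicate 2 the low library.

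Markers of other cells were examined for the whole of each list. Of 15 neuroectoderm markers, 10 could be tested, 7 rose and none fell, and their summed level was 189 to 231 CPM in PD032 and 113 to 117 CPM in 2iLif. Beside Foxd4, Pax6 had 12.8, 7.24 and 14.3 CPM in PD032 and 0.195, 0.473 and 0.26 CPM in 2iLif (log2 fold change 5.20 ± 0.46). Six3, a forebrain gene, had 2.28, 1.29 and 1.97 CPM in PD032 and 0 counts in 2iLif, at least 28.5-fold higher, and 0 counts in the combination and Aurka inh. For these 3 genes PD032 lay above all 12 other libraries. Sox1, the defining early neural marker, did not pass, with 2.37, 2.15 and 2.18 CPM in PD032, against 2.01, 2.97 and 2.15 CPM in 2iLif (-0.09 ± 0.20, edgeR adjusted p = 0.73; 0.08 without 2iLif replicate 2). Neurog2, Olig2 and Zic1 were too low to test. Whether a subset of cells carries these markers, and their part in the changes above, was not tested.

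Of the mesoderm and primitive streak markers, 5 of 9 measured were lower and 1 higher (2 without 2iLif replicate 3), with a summed level of 19.9 to 22.2 CPM in PD032 against 24.7 to 28 CPM in 2iLif. T fell by 5.08 ± 0.32, and Eomes was at 7.4, 10.4 and 9.21 CPM in PD032 and 13.1 CPM in each 2iLif library (-0.55 ± 0.16). Snai1 rose (1.28 ± 0.16) and separated the naming styles. The 6 measured trophoblast markers split, with 3 higher and 3 lower, and their list summed to 33.4 to 37.3 CPM in PD032 and 90.1 to 94.4 CPM in 2iLif. Tfap2c fell by 1.66 ± 0.17 and Krt8 by 2.84 ± 0.21, while Krt18, the partner keratin of Krt8, rose by 1.66 ± 0.14; both keratins have pseudogenes, so their counts are uncertain. Primitive endoderm markers stayed low, summing to 5.14 to 5.94 CPM in PD032 and 6.12 to 7.66 CPM in 2iLif, with 2 of 6 measured higher and 2 lower. Gata6, its defining factor, was too low to test, with 17 counts in PD032 and 8 in 2iLif. All 10 genes on the 2-cell-like list were too low to test, and their sum was at most 0.137 CPM. Of 11 fibroblast markers, 3 of 5 measured were higher and none lower (1 lower without PD032 replicate 3), Thy1 most among those above 5 CPM (2.33 ± 0.22), and Col1a1, Col3a1 and Postn were too low to test.

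Apical and junctional genes showed a few large rises. Podxl, an anti-adhesive sialomucin of lumen membranes, had 399.7, 327 and 392 CPM in PD032 and 21.4, 18.7 and 18.9 CPM in 2iLif (log2 fold change 4.25 ± 0.23, edgeR adjusted p = 2e-10). Its average was 29.4 CPM in the combination and 202 CPM in FGF2/Activin, and PD032 was above all 12 other libraries. The polarity and lumen list as a whole was even, with 6 of 15 higher and 6 lower and a median of 0.03. Llgl2, a basolateral polarity gene, fell by 1.85 ± 0.08, and Rab25 rose by 1.54 ± 0.20. Of 16 junction genes, 8 rose and 2 fell, and the 10 that passed are near the 63% of all genes tested. Cdh3, which encodes P-cadherin, had 92.7, 91.4 and 87.5 CPM in PD032, against 5.13, 5.34 and 5.4 CPM in 2iLif (4.10 ± 0.10), and Cldn6, Cgn and Epcam rose by 3.05 ± 0.16, 2.19 ± 0.20 and 1.97 ± 0.07. E-cadherin (Cdh1) changed little, at 0.22 ± 0.041, and N-cadherin (Cdh2) did not pass (0.30 ± 0.23, edgeR adjusted p = 0.26), though it did without PD032 replicate 2 (0.50). Of the 6 lower polarity genes, 4 separated the naming styles, and so did both lower junction genes.

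Basement membrane genes and integrins had 8 of 17 higher and 5 lower. Lama1, the laminin α chain of the embryonic basement membrane, had 19.1, 16.4 and 21.2 CPM in PD032 and 193, 192 and 179 CPM in 2iLif (log2 fold change -3.31 ± 0.11, edgeR adjusted p = 4.2e-13). The linker Nid1 fell by 1.77 ± 0.17 and Lamc1 by 0.72 ± 0.067, while the collagen IV chains Col4a1 and Col4a2 rose by 1.61 ± 0.15 and 1.70 ± 0.24. Integrins Itga5 (0.78 ± 0.067) and Itga6 (0.31 ± 0.055) rose and were above all 12 other libraries, and Itgb1 did not pass (0.11 ± 0.058, edgeR adjusted p = 0.12), though it did without PD032 replicate 2 (0.16).

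**Figure D4:**
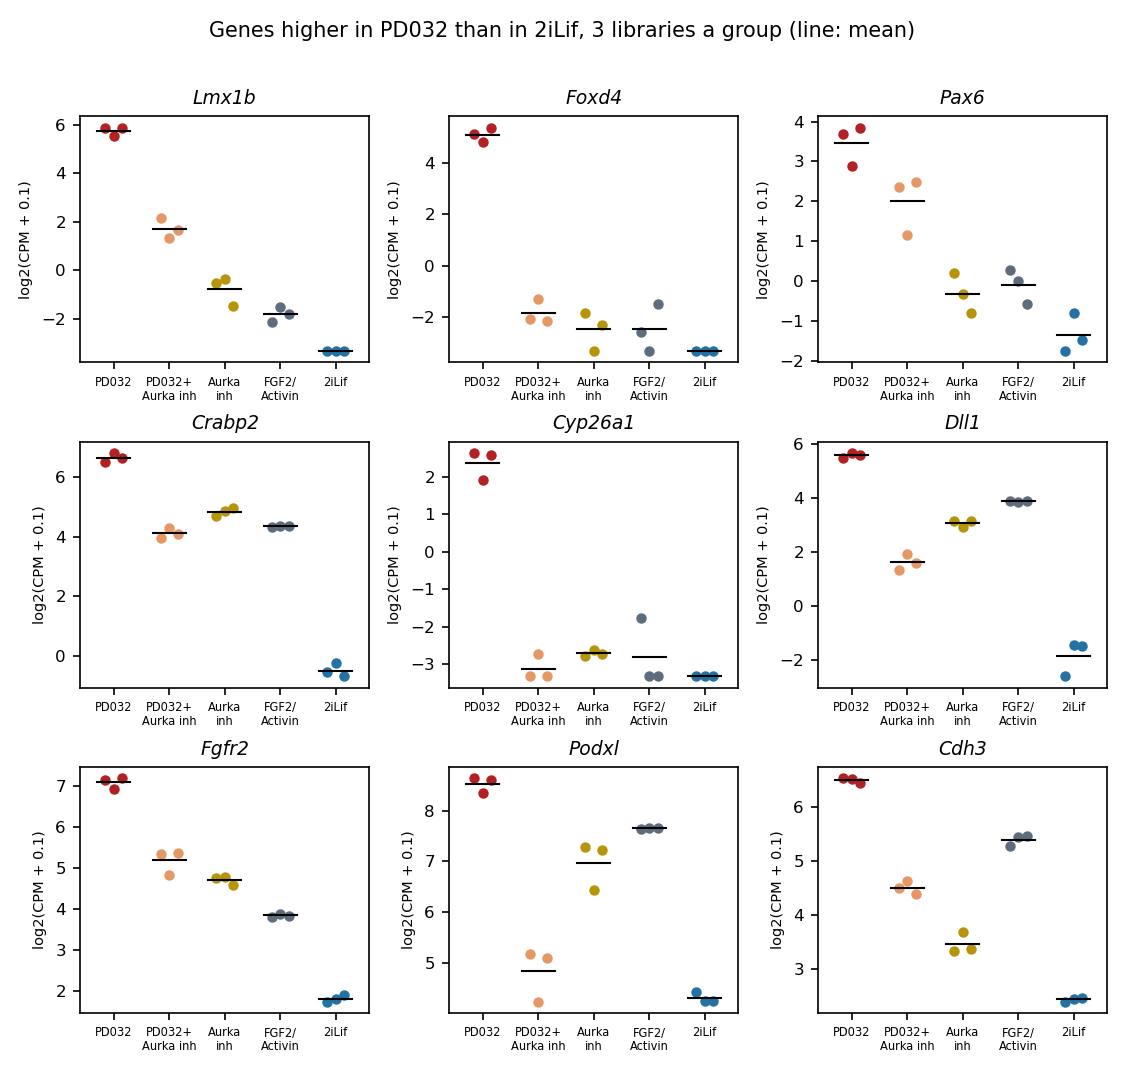
Levels of 9 genes that are higher in PD032 than in 2iLif, as log2(CPM + 0.1) in the 3 libraries of each group (points; the line is the mean on that scale), with PD032 at the left and 2iLif at the right. In all 9 panels the 3 PD032 libraries lie above the other 12, and Lmx1b, Foxd4 and Cyp26a1 are at 0 CPM in 2iLif.

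Genes of mitosis and DNA replication changed little in size. Mitosis genes were higher for 14 of 25 and lower for 1, at a median log2 fold change of 0.14, with none past 2-fold; without 2iLif replicate 3, 8 were higher, and without 2iLif replicate 1, 2 were lower. With the genes that separate the naming styles left out, 9 were higher. Plk1 rose by 0.37 ± 0.04 and Bub1 by 0.30 ± 0.048. Aurka, the kinase aimed at in other groups of the series, did not pass, with 161, 174 and 154 CPM in PD032 and 166, 165 and 175 CPM in 2iLif (-0.05 ± 0.05, edgeR adjusted p = 0.40; the sign turned to 0.02 with library sizes alone). DNA replication genes were lower for 14 of 21 and higher for none in the edgeR test (1 with library sizes alone), with a median of -0.23. Orc1, of the origin recognition complex, fell by 0.87 ± 0.059 to 66.7, 74.5 and 68.2 CPM in PD032, against 129, 124 and 129 CPM in 2iLif, and the thymidine kinase Tk1 fell by 0.73 ± 0.071. None of the changes that passed in either list reached 2-fold. In all, 15 of 25 mitosis and 14 of 21 replication genes passed, against 63% of all genes tested. The number passing therefore does not set either list apart.

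Of 12 G1 cyclins, CDK inhibitors and Myc factors, 4 were higher and 5 lower, with a median of -0.23, and 5 passed at 2-fold or more, 2 higher and 3 lower. Myc had 2.51, 4.34 and 3.94 CPM in PD032 and 20.9, 21.5 and 20.9 CPM in 2iLif (log2 fold change -2.56 ± 0.14, edgeR adjusted p = 2.2e-10), with PD032 below all 12 other libraries, and it separated the naming styles; its relative Mycn rose by 0.36 ± 0.062. Cyclin genes differed: Ccnd1 did not pass (-0.10 ± 0.06, edgeR adjusted p = 0.15), though it did without PD032 replicate 2 (-0.19), Ccnd3 fell by 1.05 ± 0.062, and Ccnd2 rose by 2.64 ± 0.30. Cdk6 fell by 2.08 ± 0.098. The CDK inhibitor Cdkn1c rose by 2.70 ± 0.15, and Cdkn1b by 0.49 ± 0.056. Cdkn1a, the p21 gene, had 63.3, 61.3 and 61.4 CPM in PD032, against 129, 126 and 137 CPM in 2iLif (-1.07 ± 0.058).

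The fall of Cdkn1a went against most of its list, since 13 of 17 measured p53 targets rose and 2 fell, Cdkn1a included, with a median of 0.51. Bbc3, the proapoptotic Puma gene, had 58, 48.4 and 60 CPM in PD032 and 23.6, 24.6 and 25.3 CPM in 2iLif (log2 fold change 1.18 ± 0.08), and Pmaip1, the Noxa gene, rose by 2.13 ± 0.18. Trp53inp1 (1.05 ± 0.075) and Ccng1 (0.96 ± 0.049) rose and stood above all 12 other libraries. Trp53 itself fell by 0.20 ± 0.051. Of the 17 targets measured, 4 separated the naming styles, Ccng1 and Trp53inp1 among them.

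Cholesterol synthesis genes rose for 18 of 21 and fell for none, with a median log2 fold change of 0.51. Hmgcs1, at the start of the pathway, had 881, 852 and 878 CPM in PD032 and 478, 475 and 468 CPM in 2iLif (0.88 ± 0.044, edgeR adjusted p = 7.5e-11). Lss, lanosterol synthase, rose by 1.01 ± 0.14 and Hsd17b7 by 0.91 ± 0.11. The rises were moderate and none of these genes separated the naming styles; for 8 of the 21, Hmgcs1 included, PD032 was above all 12 other libraries. Nsdhl did not pass. Fatty acid genes had 4 of 10 higher and 2 lower (1 lower without PD032 replicate 2 or 3), with Acsl4 (1.79 ± 0.081) and the desaturase gene Fads2 (1.34 ± 0.11) rising most. The 6 that passed are near the 63% of all genes tested.

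Glycolysis genes rose for 10 of 19 and fell for 5. Slc16a3, which exports lactate, had 336, 349.8 and 312 CPM in PD032 and 18.6, 16.4 and 29.2 CPM in 2iLif (log2 fold change 3.96 ± 0.18). The glucose transporter gene Slc2a1 had 892, 708 and 861 CPM in PD032, against 323, 313 and 355 CPM in 2iLif (1.31 ± 0.084), above all 12 other libraries, while its relative Slc2a3 fell by 0.99 ± 0.11. Hk2, a hexokinase, fell by 0.69 ± 0.046, and the phosphofructokinase Pfkm rose by 1.21 ± 0.054. Hypoxia genes rose for 7 of 12 and fell for 2, with Bnip3 (2.26 ± 0.16), Egln3 (1.85 ± 0.20) and Vegfa (0.71 ± 0.072) among the rises. None of the 7 measured mitochondrially encoded subunits passed the edgeR test (1 was higher with the 6 libraries alone), and 6 others were too low to test.

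Of 16 genes of the ATF4 amino acid response, 11 rose and 1 fell. Ddit4, an inhibitor of mTORC1, had 783, 659.7 and 755 CPM in PD032 and 191, 176 and 207 CPM in 2iLif (log2 fold change 1.94 ± 0.077), and the cystine transporter Slc7a11 rose by 1.02 ± 0.13. Asns, asparagine synthetase, was the member that fell (-0.60 ± 0.049). Lysosome and TFE3 target genes fell for 13 of 16 measured and rose for 1, with a median of -0.26; 8 fell with library sizes alone. Hexa (-1.39 ± 0.10) and Ctsb (-1.34 ± 0.10), both lysosomal hydrolases, fell most, and Rragd, a Rag GTPase, rose by 1.13 ± 0.083. Chaperones and genes of the unfolded protein response were lower for 6 of 11 measured and higher for 3, with Hspb1 lowest (-0.96 ± 0.16). Interferon-inducible and MHC class I genes were higher for 5 of 11 and lower for 3, with Irf1 lower (-1.36 ± 0.11) and H2-D1 higher (0.90 ± 0.18). The count of H2-D1 is uncertain because class I genes share sequence.

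**Figure D5:**
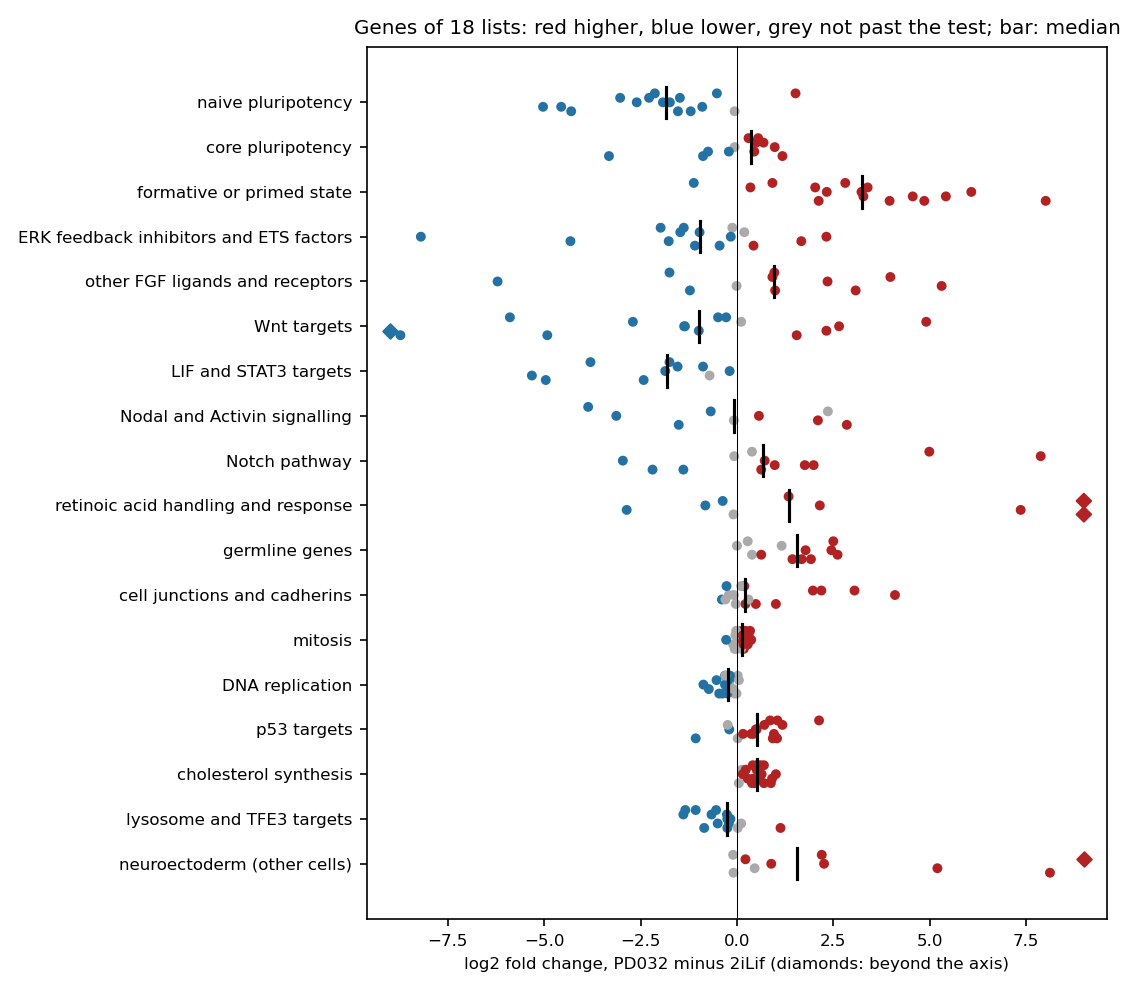
Log2 fold change, PD032 minus 2iLif, of the measured members of 18 gene lists (points; red higher, blue lower, grey not past the test; bar at the list's median; diamonds lie beyond the axis). The formative median of 3.25 and the naive median of -1.83 lie on opposite sides of the 0.01 of all genes tested, while the medians of mitosis, DNA replication and cholesterol genes are 0.14, -0.23 and 0.51.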

How the data were processed

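Poly(A)-selected RNA was sequenced from 15 libraries in 5 media, with a directional kit per the labels' protocols. The authors deposited whole-number gene counts for every library, unnormalized. The submitters' processing notes name the mm10 build, STAR and DESeq2, without versions or roles. How reads were counted, and whether by strand, is not given in the sources used here, so a gene's count can include reads of antisense or overlapping transcripts. A second deposited table of normalized values was not used.

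From the counts, filterByExpr of edgeR kept 15223 of 49585 genes, and PD032 minus 2iLif was tested by edgeR's quasi-likelihood test with TMM scaling, all 15 libraries and a term per group, so that all groups share 1 estimate of the spread (R 4.3.3, edgeR 4.0.16, limma 3.58.1, DESeq2 1.42.0). Benjamini-Hochberg adjustment covered all genes tested. Coordinates and gene types came from GENCODE M21. The fit was also run on simulated counts with a spread shared by all groups. That run does not cover the unequal spreads of PD032 and 2iLif. Folds against 0 counts are bounds at 3 counts over the group, and 95% intervals of count ratios are exact and cover counting error only.

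Members and the 38 gene lists (525 genes) were chosen with earlier results of these data known, and a count of a list is read against the share of all genes called. The named genes were the 5 higher and 5 lower genes of largest fold change that passed, had at least 10 CPM in the higher group, no clone, predicted-gene, Rik or pseudogene name, and libraries that did not overlap. To them were added 5 and 5 among those apart from all 12 other libraries, up to 3 passing members of each list with at least 5 CPM, and a fixed set: Etv4, Egr1, Spry4, Dusp6, Sox2, Pou5f1, Nanog, Klf4, Esrrb, Fgf5, Otx2, Pou3f1, Dnmt3b, Axin2, Sp5, Tcf7l1, Lef1, Socs3, Stat3, Podxl, Cdkn1a, Myc, Ccnd1, T, Gata6 and Sox1. Other list members named in the text were chosen after their values were seen, and some list members are not reported here by name. Alternatives were other scalings, DESeq2, no filter, the 6 libraries alone, limma voom with group weights, a replicate block and each library left out. In a further alternative, the genes that separate the naming styles were dropped from the main result and p was re-adjusted, without a refit.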

Additional observations from a re-analysis of the deposited data

How the results depend on the processing

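All 4 counts of called genes stayed within 1.5 times their value under every alternative run. Leaving out 1 library gave 4382 to 4889 genes higher, 4268 to 4823 lower, 2329 to 2498 higher at 2-fold or more and 1212 to 1277 lower at 2-fold or more. With library sizes alone, 5498 genes were higher and 3972 lower. Without the genes that separate the naming styles, 4246 were higher and 4011 lower. That alternative re-adjusted the p-values of the main fit without a refit, so it cannot test for a batch in the genes kept. Equal replicate numbers did not mark pairs: deviations from the group mean correlated across genes at 0.0596, -0.025 and -0.0448. With a replicate block on the 6 libraries, 4618 genes were higher and 4261 lower, and at 2-fold or more 2076 and 1078. Across 188 named genes and all alternatives, 2569 of 2606 estimates kept their direction and side of the threshold. Many of these genes were named because they passed with large fold changes in the main fit of the same libraries. Of the 2606 estimates, 164 came from leaving out the genes that separate the naming styles and repeated those of the main fit. This agreement was therefore largely fixed in advance and is no independent check. Estimates that turned sign were Egr1 (-0.77 with limma voom and group weights, -0.15 with the replicate block, -0.67 to 0.70 when 1 library was left out), Aurka (0.02) and Fbxo15 (0.01) with library sizes alone, and Sox1 (-0.21 to 0.08 when 1 library was left out), none of which passed in either direction; the cause was not tested. With limma voom and group weights, which allow each group its own spread, 4980 genes were higher and 4910 lower. Below about 1 CPM, counting error limits the estimates, as for Wnt8a and Gata6.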
